A study of Arabidopsis thaliana with 6 samples.

Results

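QQS, GAT1_2.1 and SAG29 are Arabidopsis thaliana genes tied to the carbon and nitrogen status of the leaf, and their transcript levels were compared between rosettes of a double mutant and of wild-type plants. The members are the probe sets that name only 1 gene and whose locus is AT3G30720 (QQS, chromosome 3), AT1G15040 (GAT1_2.1, chromosome 1) or that of SAG29 (AT5G13170, chromosome 5). They are 3 genes with 4 probe sets, out of 13286 genes with 13436 probe sets that could be named on the array. A gene counts as measured below if a probe set names it alone. Another 8730 probe sets were unnamed here, so a gene that was not measured may still have a probe set. The 3 genes were chosen because their values differed between these same arrays, so their own differences are given as a description and no test is attached to them. They were part of the fit over all probe sets, but their own calls are not used.

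There were 2 groups of 3 Affymetrix arrays. The double mutant is labelled as mutated in AT3G03940 and in a second locus, written with a digit missing and read here as AT5G18190. The labels call it both a knockdown and -/-, and do not give the kind of mutation. The wild type is Columbia-0 (Col0). All plants were 21 days old, well watered and grown with 12 h of light, and RNA came from rosette leaves; no label tells if a replicate was 1 plant or a pool, so p-values measure only the spread between these RNA samples.

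QQS (QUA-QUINE STARCH) is an orphan gene, found only in Arabidopsis thaliana, whose small protein binds the transcription factor subunit NF-YC4. Lowering QQS is known to raise leaf starch, and raising it is known to shift carbon and nitrogen allocation towards protein. GAT1_2.1 encodes a class I glutamine amidotransferase, a mitochondrial enzyme that releases ammonium from glutamine, and its transcript is known to respond to nitrogen supply. SAG29, also called SWEET15, is a plasma membrane sucrose transporter of the SWEET family, which moves sugars out of cells down their gradient, and it is named for its rise in senescing leaves.

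Of the targeted loci, AT5G18190 was the one that could be followed. It read 3.42, 3.57 and 3.36 in the double mutant arrays, against 7.92, 7.74 and 7.63 in the wild-type arrays, on the log2 scale of the deposited RMA values (limma adjusted p = 2.1e-09). Every double mutant array was below its own lower quartile there, near the background. AT3G03940 was not analysed here. The leaf markers RCA, LHCB4.3 and PSBY were the measured genes among 6 mesophyll markers; they rose by 0.60, 0.55 and 0.49 (limma, adjusted p of at most 0.0027). RCA, the activase of Rubisco, read 13.50, 13.54 and 13.57 in the double mutant and 12.89, 12.99 and 12.93 in the wild type. PYK10, the measured 1 of 2 root markers, rose by 0.52 (limma adjusted p = 0.0015), with 11.82 ± 0.03 in the double mutant and 11.31 ± 0.14 in the wild type (SD, n = 3 each). The guard cell gene FAMA (FMA in RefSeq) and the meristem gene CLV3 differed by -0.17 and -0.05 and did not pass (limma adjusted p = 0.27 and 0.78). No phloem, epidermis, flower or seed marker was among the named genes. The 25S rRNA control also read 6.26 higher in the double mutant. In 3 of 6 actin, GAPDH and ubiquitin controls the 5′ signal relative to the 3′ signal was higher on each of the double mutant arrays than on any wild-type array. In 1 ubiquitin control it was lower on each of them, at -1.52, -1.55 and -1.68 in the double mutant arrays, against -1.41, -1.45 and -1.33 in the wild-type arrays. The part of these differences in the results that follow was not tested. Over all 22746 probe sets, 19.8% were called higher and 18.7% lower in the double mutant (limma, Benjamini-Hochberg adjusted p under 0.05), together 38.5%. In whole rosettes, fewer cells of a type and less RNA per cell cannot be told apart.

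QQS was low in the double mutant. Its log2 value was 3.66, 3.62 and 3.66 in the double mutant arrays, against 6.73, 7.00 and 7.17 in the wild-type arrays. The groups did not overlap, and the closest pair of arrays, one from each genotype, still differed by -3.07. Groups that do not overlap were common, at 49.7% of all probe sets. The mean was 3.65 ± 0.02 in the double mutant and 6.97 ± 0.22 in the wild type (SD, n = 3 each), a difference of -3.32 (SE 0.11). Every double mutant array read below the lower quartile of its own array, which was 3.71 to 3.79 in that group. RMA values there lie close to the background and have little room to fall further. Set against those lower quartiles, QQS was at least 9.31-fold lower in the double mutant.

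The QQS values of the double mutant arrays lay close together and those of the wild-type arrays further apart. The difference in spread was not tested. Every double mutant value lay below the lower quartile of its array, where RMA compresses differences, so that spread cannot be read as the spread of the transcript. The SD of 0.02 in the double mutant was larger than that of 5.11% of probe sets in that group, and the SD of 0.22 in the wild type was larger than that of 82.9% of probe sets there. The median SD over all probe sets was 0.09 in the double mutant and 0.13 in the wild type. Wild-type arrays 1 and 3 marked the ends of the wild-type range, 0.45 apart.

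GAT1_2.1 is read by a pair of probe sets, and they differed. Probe set 260741_at read 7.86, 7.57 and 7.75 in the double mutant arrays, against 4.24, 4.02 and 3.97 in the wild-type arrays. All double mutant arrays lay above all wild-type arrays, with at least 3.33 between any 2 arrays of different genotype. The mean was 7.73 ± 0.15 in the double mutant and 4.07 ± 0.14 in the wild type (SD, n = 3 each), a difference of 3.65 (SE 0.11) or 12.6-fold, number 11 among the increases of all probe sets. The wild-type values lay above the lower quartile of their arrays, but not far above it, at percentiles 29.2 to 32.5. RMA compresses differences near the background, and how far this affected the 12.6-fold size was not tested.

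Probe set 260743_at read 3.24, 3.38 and 3.34 in the double mutant arrays and 3.06, 3.21 and 3.10 in the wild-type arrays. The groups did not overlap, but the closest arrays were 0.03 apart. Its difference was 0.20 (SE 0.09), and all 6 arrays were below their own lower quartile, so it gives no level for the gene in either genotype. RefSeq lists 2 transcripts for GAT1_2.1; no source used here places the probe sets on them. Of 144 genes with more than 1 probe set, 76 had some that were called and others that were not. The called share of all probe sets was 38.5%. That count concerns calls only and does not describe how far the probe sets of a gene differ in size.

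SAG29 was higher in the double mutant. It read 6.24, 6.34 and 6.63 in the double mutant arrays, against 5.02, 4.92 and 4.81 in the wild-type arrays. No array of one genotype reached the range of the other, and the closest pair differed by 1.22. The mean was 6.40 ± 0.20 in the double mutant and 4.92 ± 0.11 in the wild type (SD, n = 3 each), a difference of 1.48 (SE 0.11) or 2.80-fold, number 360 among the increases. The double mutant arrays were spread more widely, with an SD larger than that of 91.5% of probe sets in that group, and double mutant array 3 was the highest. All of its values were above the lower quartile of their arrays.

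**Figure D1:**
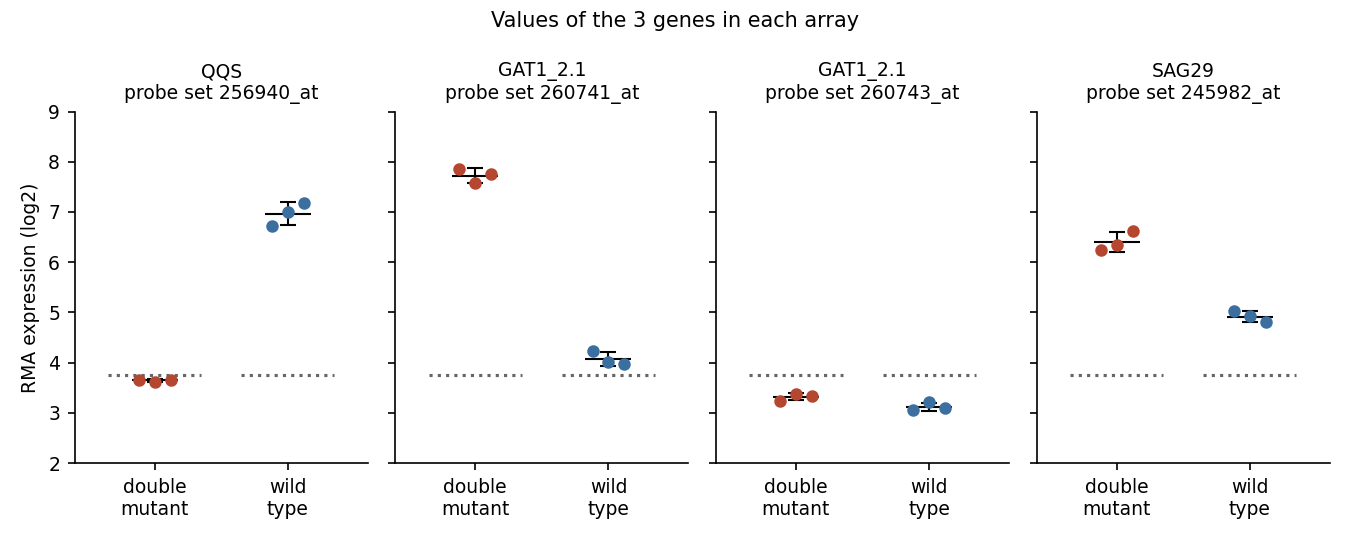
RMA log2 expression of the 4 probe sets in each array (points), by genotype, with the mean and SD (black) and the mean lower quartile of the 3 arrays of that genotype (dotted). QQS is at 3.65 in the double mutant and 6.97 in the wild type, 260741_at of GAT1_2.1 at 7.73 in the double mutant and 4.07 in the wild type, and SAG29 at 6.40 in the double mutant and 4.92 in the wild type, while 260743_at of GAT1_2.1 stays below the dotted line in both.

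The authors' deposited table gives the same log2 differences, -3.32 for QQS, 3.65 and 0.20 for GAT1_2.1, and 1.48 for SAG29. When each array was left out in turn, the difference ran from -3.44 to -3.22 for QQS, from 3.59 to 3.73 for 260741_at of GAT1_2.1 and from 1.37 to 1.56 for SAG29.

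SAG29 can be set beside its own family, because 15 of the other 16 SWEET genes were measured. Calls went both ways, with 4 genes higher, 4 lower and 7 that did not pass, which is 53.3% called where 34.9% of all 13286 named genes were called (limma). The median difference of the 15 genes was 0.03, and that of all named genes was -0.01. Clade III, which holds SAG29 and the other sucrose-transporting SWEETs, had 5 other measured genes. The calls among them were 3 falls and 0 rises.

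Among those clade III genes, SWEET11, which exports sucrose for phloem loading in leaves, read 10.61, 10.68 and 10.69 in the double mutant arrays, against 11.79, 11.61 and 11.65 in the wild-type arrays. The groups did not overlap, and its fall was 2.03-fold, or -1.02 on the log2 scale (SE 0.09, limma adjusted p = 6.5e-06). SWEET13, a close relative that also acts in sucrose export, read 4.62, 4.56 and 4.47 in the double mutant and 6.16, 6.37 and 6.35 in the wild type. It fell by 1.74 (SE 0.10, limma adjusted p = 2.1e-07), the largest fall among the measured SWEET genes. SWEET10 fell by 1.21 (SE 0.16, limma adjusted p = 0.00012), with double mutant array 3 the highest of its group at 6.01 and wild-type array 1 the lowest of its group at 6.61. SWEET9, the nectary transporter, and SWEET14 differed by 0.03 and 0.10 and did not pass (limma adjusted p = 0.86 and 0.46). Both stayed at or below 3.79 in every array, near the lower quartiles. SWEET12 was not analysed here. SAG29 therefore lay on the other side of 0 from the clade III genes that changed; the differences between SAG29 and these genes were not tested.

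Apart from SAG29, whose own call is not used, the SWEET genes that rose were outside clade III. SWEET2, a glucose transporter of the vacuole membrane, read 7.82, 7.64 and 7.67 in the double mutant arrays, against 4.89, 4.85 and 5.13 in the wild-type arrays. Its rise of 2.76 (SE 0.10, limma adjusted p = 1.9e-08) was 6.77-fold and larger than the difference of SAG29. Both clade IV genes, which move fructose and other sugars across the vacuole membrane, rose as well. SWEET17 rose by 1.03 (SE 0.18, limma adjusted p = 0.0011); wild-type array 2 read 6.38, apart from 7.15 and 7.20 in the other wild-type arrays, and the double mutant arrays were between 7.90 and 7.97. SWEET16 rose by 0.33 (SE 0.11, limma adjusted p = 0.033), a call that did not last: its adjusted p was 0.14 and 0.074 without double mutant arrays 1 and 2, 0.077 and 0.060 without wild-type arrays 1 and 2, and 0.054 with the arrays centred on their medians. SWEET5, listed by RefSeq as AtVEX1 and known from the vegetative cell of pollen, rose by 0.91 (SE 0.12, limma adjusted p = 0.00015), to 5.35 ± 0.11 in the double mutant, against 4.44 ± 0.24 in the wild type (SD, n = 3 each).

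Of the remaining SWEET genes only SWEET1 was called. SWEET1, a glucose transporter of the plasma membrane, fell by 0.39 (SE 0.09, limma adjusted p = 0.0056). SWEET3, SWEET4, SWEET6 and SWEET8 differed by -0.01, 0.03, -0.21 and 0.07 and did not pass. SWEET7 differed by -0.35 (limma adjusted p = 0.080), with 3.30, 3.35 and 3.25 in the double mutant arrays and 3.45, 4.04 and 3.47 in the wild-type arrays. Wild-type array 2 stood apart: without it the SWEET7 difference was -0.16 (adjusted p = 0.19), and without wild-type array 1 it passed (-0.45, adjusted p = 0.039), as it did with the arrays centred on their medians (-0.40, adjusted p = 0.043). SWEET14 was below the lower quartile on all 6 arrays, SWEET6 and SWEET7 on every double mutant array and SWEET8 on every wild-type array, so their differences are limited by dim signals.

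**Figure D2:**
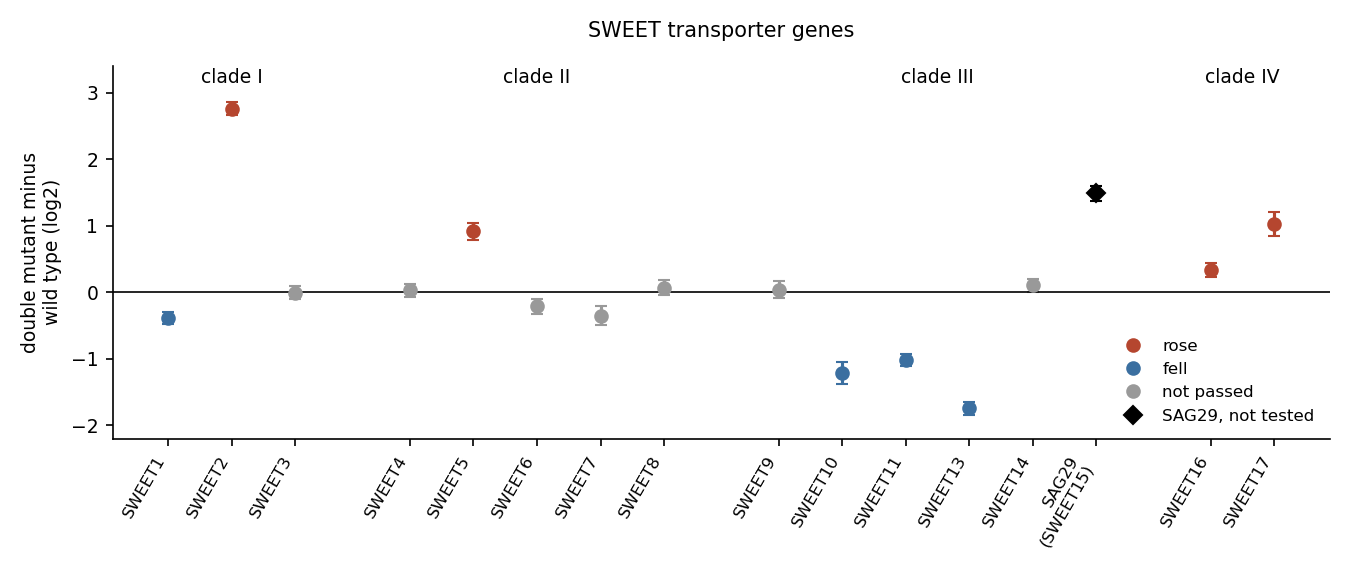
Log2 difference, double mutant minus wild type, with its SE, for each measured SWEET gene, grouped by clade. Colour gives the limma call. The black diamond is SAG29, marked as not tested because it was chosen from these same arrays and its call is not used. In clade III SWEET10, SWEET11 and SWEET13 lie at -1.21, -1.02 and -1.74, and SAG29 at 1.48; SWEET2 is the highest at 2.76.

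The wider carbon, nitrogen and senescence genes were followed through 12 lists with 231 genes, of which 43 were measured and 2 lists had no measured gene. Over these lists, the SWEET genes included, 16 genes were higher, 13 were lower and 14 did not pass. That is 67.4% called, where 34.9% of named genes were called, 17.8% as higher and 17.1% as lower. The same shares of named genes stand beside the counts of each list below. Dim genes were called less often, at 9.47% of the 3971 named genes with a mean below the lower quartile of all probe sets. With the low-signal filter 26 of 30 list genes were called, and 6240 of 11373 probe sets. The median difference over the 43 genes was 0.11. The lists were chosen with earlier results of these data known and most of them hold only 1 to 3 measured genes, so the counts describe those genes and not the pathways.

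QQS is known for its effect on starch, and the starch genes are given beside it. From the starch breakdown list 3 of 24 genes were measured, and 2 fell and 1 rose. PWD, the phosphoglucan water dikinase that adds phosphate to starch before it is degraded, read 7.98, 7.98 and 8.19 in the double mutant arrays, against 10.04, 10.31 and 10.01 in the wild-type arrays. It fell by 2.07 (SE 0.11, limma adjusted p = 1.7e-07) or 4.20-fold, with no overlap. DPE1, the plastid disproportionating enzyme that processes short glucans, fell by 0.92 (SE 0.09, limma adjusted p = 1.6e-05). AMY1, an alpha-amylase, rose by 0.51 (SE 0.11, limma adjusted p = 0.0038), to 5.33 ± 0.12 in the double mutant, against 4.83 ± 0.17 in the wild type (SD, n = 3 each).

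From the starch synthesis list 3 of 16 genes were measured, of which 1 fell and 2 did not pass. APL3, a large subunit of ADP-glucose pyrophosphorylase, the enzyme that makes the glucosyl donor for starch, fell by 0.68 (SE 0.09, limma adjusted p = 0.00016). Its log2 value was 5.65, 5.73 and 5.76 in the double mutant arrays and 6.27, 6.44 and 6.47 in the wild-type arrays. The other measured genes, APL4 and the branching enzyme gene SBE2.2, differed by 0.06 and 0.20 (limma adjusted p = 0.66 and 0.32). Without wild-type array 2 the list had 2 calls in place of 1.

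Sugar transport and sucrose genes moved in both directions. TMT1 and TMT2, which load sugars into the vacuole, fell, with differences of -0.89 (SE 0.10) and -0.98 (SE 0.12) and limma adjusted p of 2.8e-05 and 6.2e-05. TMT3 differed by 0.22 and did not pass (limma adjusted p = 0.11). These were the 3 measured genes of 17 on the list of other sugar transporters. All 3 measured genes of 22 on the sucrose and trehalose list were called, where 34.9% of named genes were. AT1G62660 rose by 1.20 (SE 0.10, limma adjusted p = 3.9e-06) and AT2G35840 by 0.74 (SE 0.11, adjusted p = 0.00028). ATSPS4F, a sucrose phosphate synthase, fell by 0.31 (SE 0.10, limma adjusted p = 0.034). That call was lost without double mutant array 2 or 3 (adjusted p = 0.11 and 0.12) and without wild-type array 2 or 3 (adjusted p = 0.065 and 0.11).

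From the sugar starvation and energy signalling list 3 of 22 genes were measured. All 3 were called, where 34.9% of named genes were. AKINBETA1, a beta subunit of the energy-sensing kinase SnRK1, rose by 0.63 (SE 0.09, limma adjusted p = 0.00017). AT3G15450 rose by 0.62 (SE 0.10, limma adjusted p = 0.00048). BZIP53, a transcription factor of the low-energy response, fell by 0.29 (SE 0.09, limma adjusted p = 0.021). Its adjusted p was 0.065, 0.057 and 0.066 without double mutant arrays 1, 2 and 3 and 0.062 without wild-type array 3.

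Few nitrogen genes could be set beside GAT1_2.1. From the nitrogen uptake and assimilation list 2 of 38 genes were measured, both asparaginases, which release ammonium from asparagine as GAT1_2.1 does from glutamine. They moved in opposite directions. ASPGB1 rose by 0.69 (SE 0.09, limma adjusted p = 0.00014), with 7.17, 7.30 and 7.27 in the double mutant arrays and 6.67, 6.54 and 6.49 in the wild-type arrays. ASPGA1 fell by 0.84 (SE 0.08, limma adjusted p = 1.6e-05), with 7.90, 7.93 and 7.98 in the double mutant and 8.77, 8.75 and 8.80 in the wild type. Of the nitrogen regulation list, AT1G25550 rose by 1.11 (SE 0.10, limma adjusted p = 9e-06) and AT1G68670 differed by 0.11 (adjusted p = 0.47); these were the 2 measured genes of 19. The glutamine dumper genes and the NF-Y genes, among them the partner of QQS, were not analysed here.

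The senescence list gives the context of SAG29. Of its 28 genes 8 were measured, and 5 of them rose, 1 fell and 2 did not pass. That is 75% called, where 34.9% of named genes were called, 17.8% as higher and 17.1% as lower. Without 1 array the list had 5 to 7 calls. The median difference of the 8 genes was 0.36, and that of all named genes was -0.01. WRKY22, a transcription factor of dark-induced senescence, read 7.18, 7.11 and 7.06 in the double mutant arrays, against 5.52, 5.62 and 5.35 in the wild-type arrays. It rose by 1.62 (SE 0.10, limma adjusted p = 3.9e-07). PPDK, which helps to export nitrogen from senescing leaves, rose by 0.88 (SE 0.10, limma adjusted p = 3.1e-05), and ATG8E, a coat protein of autophagosomes, rose by 0.75 (SE 0.15, adjusted p = 0.0027). NOL, a chlorophyll b reductase of chlorophyll breakdown, fell by 0.39 (SE 0.09, limma adjusted p = 0.0063). SAG101 and WRKY6 completed the list's rises, with differences of 0.36 and 0.35 (limma adjusted p = 0.015 and 0.011). WRKY53 and ATG8A (APG8A in RefSeq) differed by 0.30 and 0.19 and did not pass (limma adjusted p = 0.055 and 0.25).

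**Figure D3:**
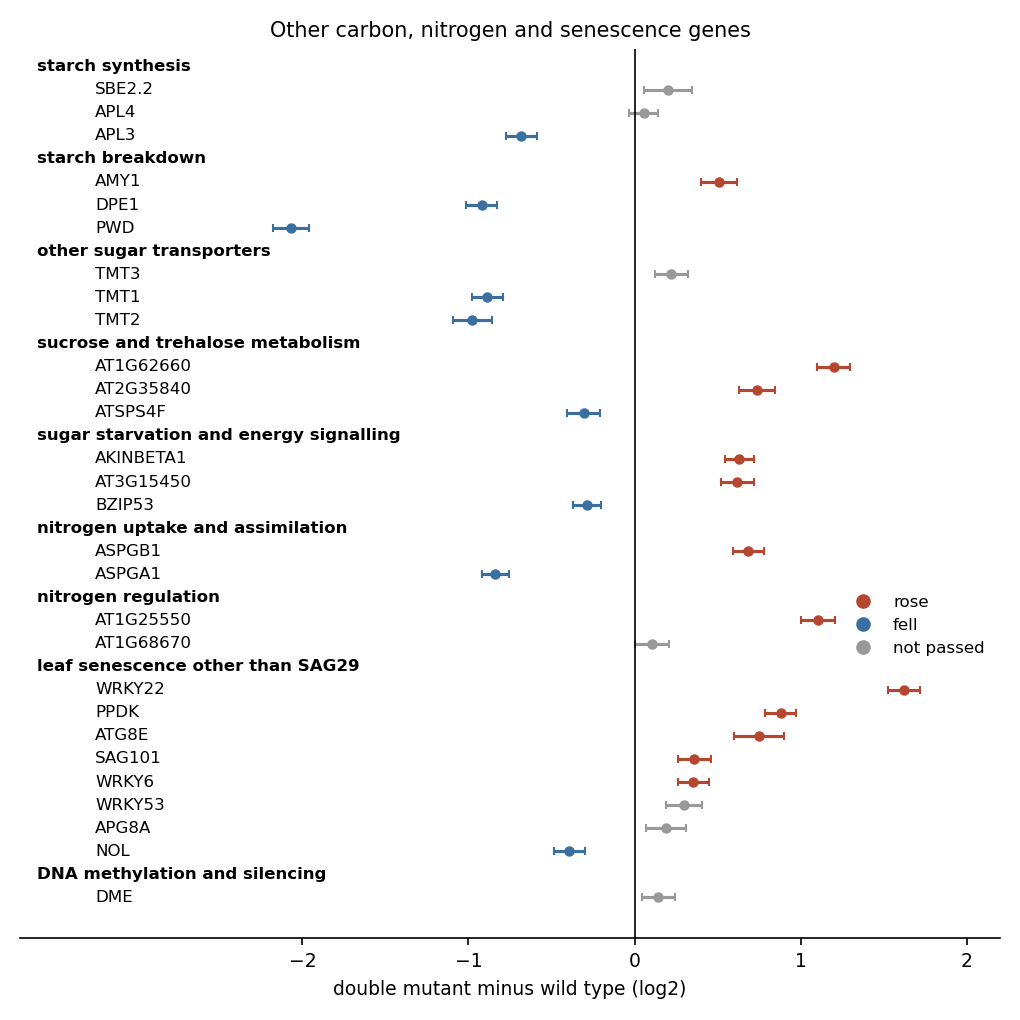
Log2 difference, double mutant minus wild type, with its SE, for the measured genes of the lists other than the SWEET list; colour gives the limma call. PWD is the lowest at -2.07 and WRKY22 the highest at 1.62, and calls in both directions occur in the starch breakdown, sucrose, energy signalling, nitrogen assimilation and senescence lists.

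QQS expression is known to vary between natural accessions with DNA methylation near the gene, so its chromosomal surroundings were examined too. None of the 40 nearest measured genes, 20 on each side by RefSeq gene order, was called (limma), where 34.9% of named genes were. At an unadjusted p under 0.05 there were 5, and the authors' deposited table also called 0. Their differences ran from -0.35 to 0.25, with a median of -0.05. These neighbours are weakly expressed: 34 of 40 had a mean below the lower quartile of all probe sets, and 33 of 40 are annotated as pseudogenes. Of all 3971 named genes below that quartile, 9.47% were called. The arrays of the genotypes did not overlap for 10 of the 40 neighbours, where this held for 46.2% of named genes. The number of called neighbours was 3 without wild-type array 3, and 1 without wild-type array 2, without double mutant array 2, with the arrays centred on their medians, or with a trended and robust variance. The adjacent measured genes, the pseudogene AT3G30710 on one side and AT3G30730 on the other, differed by 0.25 and -0.13 (limma adjusted p = 0.10 and 0.36). Of DNA methylation genes 1 of 19 was measured: DME, a DNA demethylase, differed by 0.14 (limma adjusted p = 0.29).

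GAT1_2.1 and SAG29 lie among genes called about as often as elsewhere. Among the 40 nearest to GAT1_2.1, 6 rose and 9 fell, or 37.5%, where 34.9% of named genes were called. The genotypes did not overlap for 19 of the 40, which is near the 46.2% of named genes. The adjacent measured gene AT1G15010 rose by 1.41 (SE 0.09, limma adjusted p = 7.1e-07), with 5.84, 5.69 and 5.79 in the double mutant arrays and 4.29, 4.46 and 4.33 in the wild-type arrays. Next to it scpl50 (AT1G15000), a serine carboxypeptidase-like gene, fell by 1.27 (SE 0.09, limma adjusted p = 1.9e-06). AT1G14990 fell by 0.66 (SE 0.09, limma adjusted p = 0.00015). On the other side IAA34 and AT1G15060 did not pass, and AT1G15120 fell by 0.26 (limma adjusted p = 0.046). That call was lost without any 1 of the double mutant arrays (adjusted p = 0.12, 0.15 and 0.071) and without wild-type array 2 or 3 (adjusted p = 0.084 and 0.13). AT1G14780, singled out after its values were seen, had the largest rise of the 40, 2.58 (SE 0.15, limma adjusted p = 3.9e-07).

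Among the 40 genes nearest to SAG29, 6 rose and 8 fell, or 35%, with differences from -0.78 to 0.75. The called share is near the 34.9% of named genes, and the genotypes did not overlap for 16 of the 40, where 46.2% of named genes did not. The 14 calls became 9, 7 and 9 without double mutant arrays 1, 2 and 3. The adjacent measured gene on one side, AT5G13140, fell by 0.49 (SE 0.13, limma adjusted p = 0.012), and that on the other, AT5G13200, differed by -0.01 (adjusted p = 0.94). AT5G13240 fell by 0.37 (SE 0.10, limma adjusted p = 0.014), while AT5G13100, AT5G13130 and AT5G13230 did not pass. Without double mutant array 3 the calls of AT5G13140 and AT5G13240 were lost (adjusted p = 0.054 and 0.052).

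**Figure D4:**
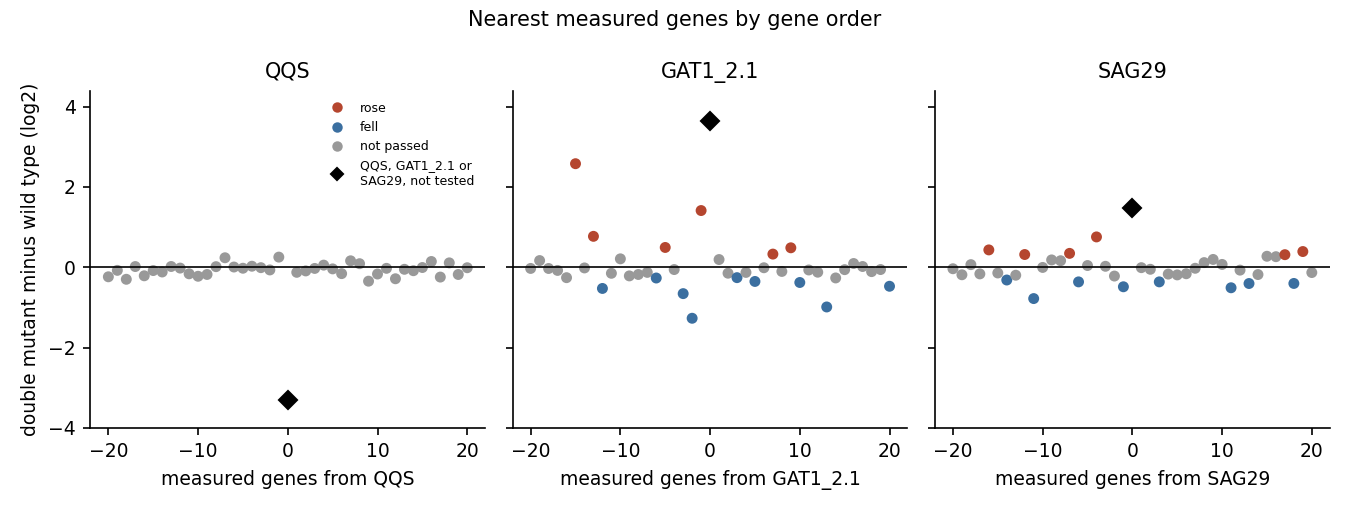
Log2 difference, double mutant minus wild type, of the 20 nearest measured genes on each side of QQS, GAT1_2.1 and SAG29, in RefSeq gene order along the chromosome. Colour gives the limma call. Black diamonds are QQS, GAT1_2.1 and SAG29, marked as not tested because they were chosen from these same arrays and their calls are not used. The neighbours of QQS stay between -0.35 and 0.25, while both colours occur around GAT1_2.1 and SAG29.

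The genes with the nearest patterns were found by Euclidean distance over the 6 arrays, after subtraction of the wild-type mean from each probe set. Since that distance is set mostly by the difference between genotypes, the likeness describes size and direction only. For QQS they were AT4G16146, AT4G33980 and AT5G33370, at distances of 0.34, 0.46 and 0.58 and with differences of -3.30, -3.21 and -3.43. For 260741_at of GAT1_2.1 they were the nuclear gene AT5G39580, the plastid gene ndhH and AT5G50915, at 0.46, 0.57 and 0.62, with differences of 3.50, 3.77 and 3.46. AT4G33980 in the double mutant and AT5G39580 in the wild type were below the lower quartile on every array, which limits their differences. SAG29 was followed most closely by AT5G44170, AT1G72060 and AT2G30600, at 0.19, 0.22 and 0.25, with differences of 1.53, 1.53 and 1.38. For 260743_at of GAT1_2.1 the nearest were AT2G42490, AT5G28310 and AT4G22040, at 0.05, 0.05 and 0.06, and none of these passed (limma adjusted p of 0.11 to 0.12). Both 260743_at and AT4G22040 were below the lower quartile on all 6 arrays, so their likeness is one of dim signals.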

How the data were processed

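The authors deposited log2 RMA values, 1 for each probe set of each array. The submitters' processing notes name R 2.9.0, RMA and limma. RMA includes background correction, quantile normalization and probe summarisation, and it compresses differences near the background. The authors' deposited table gives log2 differences, p-values and score columns (moderated t and log odds) of their own comparison; its differences equal double mutant means minus wild-type means within 6.7e-09. Depth has no counterpart on arrays, and the number of arrays, 3 per group, limits precision. Detection calls, scan dates and slides were not used here, so batches were not examined. Array medians were 5.81 to 5.90.

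After 64 control probe sets were left out, 22746 of 22810 were compared between genotypes in R 4.3.3 by limma 3.58.1 (lmFit and eBayes without covariates, two-sided; Benjamini-Hochberg threshold 0.05; 10.6 total degrees of freedom). Probe sets were named through the platform annotation (13513 name 1 gene, 503 several, 8730 unnamed here), matched to RefSeq TAIR10.1 for 13436; positions are left out, since no build is named. For each gene the probe set with the highest mean was used. Sequences of the genes were not used here, so the planned protein and promoter descriptions were not made. Probe sequences were not used either, so cross-hybridisation between related genes such as the SWEETs was not examined.

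The members and gene lists were chosen with earlier results of these data known. Named genes are the members, from each list up to 3 called genes without overlap between the genotypes with the largest change in each direction, or, where none was called, that with the largest statistic, all SWEET genes, the 3 nearest measured genes on each side of each member and the 3 most alike in pattern; genes outside this rule are given to account for a list. Windows of 20 genes per side were added after the values were seen. The fit was tested on 5 simulated data sets, in which 200 of 22746 probe sets were changed. It called 99.6% of log2 changes of 2 and 90.6% of log2 changes of 1. These shares describe the changed probe sets only, and no rate of false calls is given here. In the real data 38.5% of probe sets were called, so the simulations do not show how the fit behaves at that share. Alternatives were other normalizations, a low-signal filter, another variance model, a replicate block, the authors' deposited table and each array left out in turn. Plots used Python 3.11.15, pandas 2.3.3 and matplotlib 3.10.9.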

Additional observations from a re-analysis of the deposited data

Results flagged for a closer look

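Control signals outside the gene tests differed between the genotypes, and among the Arabidopsis controls the rRNA controls differed most. The 25S rRNA control was 6.26 higher on the log2 scale in the double mutant, with 12.19, 12.08 and 12.32 in the double mutant arrays, against 5.45, 6.81 and 5.53 in the wild-type arrays. Its part in the values of QQS, GAT1_2.1 and SAG29 was not tested.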

How the results depend on the processing

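The differences of QQS, GAT1_2.1 and SAG29 kept their direction and moved by less than the SD pooled over both genotypes under every alternative that could give them; the low-signal filter (mean at or above the median of all probe sets) removes QQS, SAG29 and 260743_at of GAT1_2.1. The number of changed probe sets was 6985 to 8834 without 1 array, 6240 of 11373 with the filter and 8744 in the authors' deposited table, and that of changed list genes was 26 to 30 without 1 array. Same-numbered arrays of the genotypes deviated from their group means with correlations of -0.08, -0.10 and -0.16, so the numbers were not taken to pair arrays. With the replicate number as a block 8095 probe sets and 26 list genes changed, and SWEET16, ATSPS4F, BZIP53 and AT1G15120 did not pass (adjusted p = 0.052, 0.067, 0.051 and 0.077). Called genes among the 40 nearest to QQS numbered 0 to 3 without 1 array, 1 with arrays centred on their medians and 1 with a trended and robust variance. Among those nearest to SAG29 there were 7 to 13 without 1 array and 9 with the filter, which leaves 24 genes. The starch synthesis list had 1 to 2 calls without 1 array. Of 839 values of 72 named genes over the alternatives, 813 kept their side of the threshold, 24 lost a call and 2 gained one, and none changed direction while called. The cause was not tested. Dim signals limit what can be said of AT5G18190 and QQS in the double mutant, of that GAT1_2.1 probe set, of most neighbours of QQS and of SWEET6, SWEET7, SWEET8 and SWEET14, among others.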
